A study of Mus musculus with 2 samples.

Results

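The genes described here are 8 genes of iron handling and of red pulp macrophages: *Hmox1*, *Slc40a1*, *Spic*, *Vcam1*, *Fth1*, *Ftl1*, *Tfrc* and *Slc11a1*. They were chosen by name, with earlier results of these data known, as 8 of the 32285 genes counted. Each was followed through every barcode class and library. By the paper's account the data are single-cell RNA counts of live CD45+ splenocytes from mice infected with LCMV-cl13. This variant of lymphocytic choriomeningitis virus causes a lasting infection. Some labels name other sources, as given below. PEP-WT mice were wild type C57BL/6, and PEP-619WW mice carried a CRISPR/Cas9 knock-in on the same strain. In the knock-in an arginine of PEP, the phosphatase made from *Ptpn22*, is replaced by tryptophan in all cells. All mice received 1000000 PFU of virus intravenously, and spleens were collected 8 days later. The cells of 4 to 5 mice per genotype were pooled into 1 sample before sorting. Mice of both sexes aged 6 to 12 weeks were used in the study, and no uninfected sample was analysed here.

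Macrophages of the splenic red pulp take up aged red cells and return their iron to the blood. Heme is opened by heme oxygenase 1, encoded by *Hmox1*, and the freed iron leaves the cell through ferroportin, encoded by *Slc40a1*, or is stored in ferritin, a shell built from the heavy chain of *Fth1* and the light chain of *Ftl1*. SPI-C, the product of *Spic*, is the transcription factor on which red pulp macrophages depend, and these cells also carry the adhesion molecule VCAM-1. *Tfrc* encodes the transferrin receptor, which brings iron into cells and is abundant on red cell precursors, and *Slc11a1* encodes NRAMP1, a transporter that moves metal ions out of the phagosome. Iron regulatory proteins bind short hairpins, called iron-responsive elements, in the mRNA of several of these genes. When iron is scarce, binding at the 5′ end blocks translation and binding at the 3′ end protects the mRNA from decay.

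Because these hairpins are shared in sequence by several iron genes, they were searched in the annotated transcripts (GENCODE vM21, mouse build GRCm38). The pattern was an unpaired c, a stem of 5 paired bases with g-t pairs allowed, and the loop CAGTGN, read on the transcript strand. Among genes with an annotated 5′ UTR, 30 of 20899 held a match (0.144%), and among genes with a 3′ UTR 128 of 21028 did (0.609%). *Fth1*, *Ftl1* and *Slc40a1* each held 1 match in the 5′ UTR, *Tfrc* held 4 in the 3′ UTR, and *Hmox1*, *Spic*, *Vcam1* and *Slc11a1* held none. Windows of 27 bases follow, with the loop in capitals.
Fth1, 5′ UTR, chr19:9982733-9982759, plus strand: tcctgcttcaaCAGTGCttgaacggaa
Ftl1, 5′ UTR, chr7:45459780-45459806, minus strand: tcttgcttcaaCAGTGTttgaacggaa
Slc40a1, 5′ UTR, chr1:45925466-45925492, minus strand: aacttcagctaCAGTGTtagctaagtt
Tfrc, 3′ UTR, chr16:32631220-32631246, plus strand: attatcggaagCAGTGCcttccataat
Tfrc, 3′ UTR, chr16:32631599-32631625, plus strand: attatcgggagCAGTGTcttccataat
Tfrc, 3′ UTR, chr16:32631664-32631690, plus strand: tatatcggagaCAGTGAtctccatatg
Tfrc, 3′ UTR, chr16:32631711-32631737, plus strand: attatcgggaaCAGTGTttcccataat
The counts measure mRNA, so what these elements do to translation was not measured. The 8 genes lie at chr8:75093621-75100589 (*Hmox1*), chr1:45908068-45926523 (*Slc40a1*), chr10:88674772-88685015 (*Spic*), chr3:116109949-116129688 (*Vcam1*), chr19:9980598-9985098 (*Fth1*), chr7:45457944-45459884 (*Ftl1*), chr16:32608920-32632794 (*Tfrc*) and chr1:74375195-74386062 (*Slc11a1*). *Ftl1-ps1*, a near copy of *Ftl1*, took 0.632% as many UMIs as *Ftl1*. Reads that fit both equally well were not measured, so how far this copy affects *Ftl1* values is not known.

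Of each genotype 2 sets of counts were deposited, called run 1 and run 2 here, and their relation is not given in the sources. The second set has the barcode numbers and median gene numbers that the methods describe, and the first matches none given there. The 4 libraries held 8576 to 14821 barcodes and 55504449 to 77916082 UMIs (unique molecular identifiers, each a captured molecule), with a median of 2832 to 4837 UMIs per barcode. Any 2 libraries shared 19 to 49 barcodes. Although the protocol and the paper describe splenocytes, some labels name other sources (liver, tumor infiltrates and a T cell line of human origin). The 4 hepatocyte markers were at 0 in the macrophage and monocyte classes described next, apart from 1 UMI of *Ttr* in PEP-WT run 2, and of 5 liver macrophage markers *Clec4f* was at 0 in both classes of every library. In each class 2 to 4 of the 5 had UMIs. The 5 markers summed to 102 and 50.3 CPM in run 1 macrophages, to 22.6 and 4.41 CPM in run 2 macrophages, and to 1.73 to 6.88 CPM in monocytes. In macrophages most of these UMIs were of *Cd5l*, with 698 and 390 UMIs in run 1 and 905 and 68 in run 2. *Cd5l* is also the gene closest to *Vcam1* in level over the classes, as given below. Run 2 held UMIs of all 6 melanocyte markers, no erythroid barcode and, for PEP-WT, only 10 T and 2 B barcodes, so the runs do not hold the same cells and each was analysed apart. Tumor infiltrates are among the sources named in the labels, and the tissue from which run 2 came was not established here. A knock-in of 1 amino acid cannot be checked in counts near the 3′ end.

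Barcodes were sorted into 5 classes by marker UMIs: C1q macrophages (at least 5 of *C1qa* and *C1qb* together), monocytes (at least 5 of *Lyz2* and none of *C1qa*), erythroid cells (at least 2 of *Car1* and *Ermap*), T cells (*Cd3e* and no *Lyz2*) and B cells (*Cd79a* and *Ms4a1*). Levels are UMIs of a gene per 1000000 UMIs of the class (CPM). Run 1 gave 598 C1q macrophage barcodes for PEP-WT and 494 for PEP-619WW, and run 2 gave 5839 and 1968. In run 1, 35.8% and 35.0% of these also met another class's rule, against 1.4% and 8.74% in run 2. The monocyte class held 1069, 838, 817 and 3089 barcodes in the same order. In run 1 the 6 neutrophil markers added up to 44825 and 76979 CPM of that class, and 20.4% and 31.7% of its barcodes had a UMI of *Ly6g*, so the run 1 gate held neutrophils too. In run 2 they summed to 2356 and 1736 CPM. The run 2 monocyte class held macrophage transcripts instead. Lipid-associated macrophage markers (*Trem2*, *Gpnmb*, *Spp1* and *Fabp5*) summed to 12428 and 3115 CPM there, against 174 and 134 CPM in run 1 monocytes. The markers *Folr2*, *Lyve1* and *Mrc1* summed to 696 and 489.8 CPM, against 3.69 and 4.61 CPM. The monocyte classes of the 2 runs are thus unlike. With 1 pooled library per genotype and run there is no replicate error, no test was made, and all intervals are exact 95% intervals that cover counting error only.

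**Figure D1:**
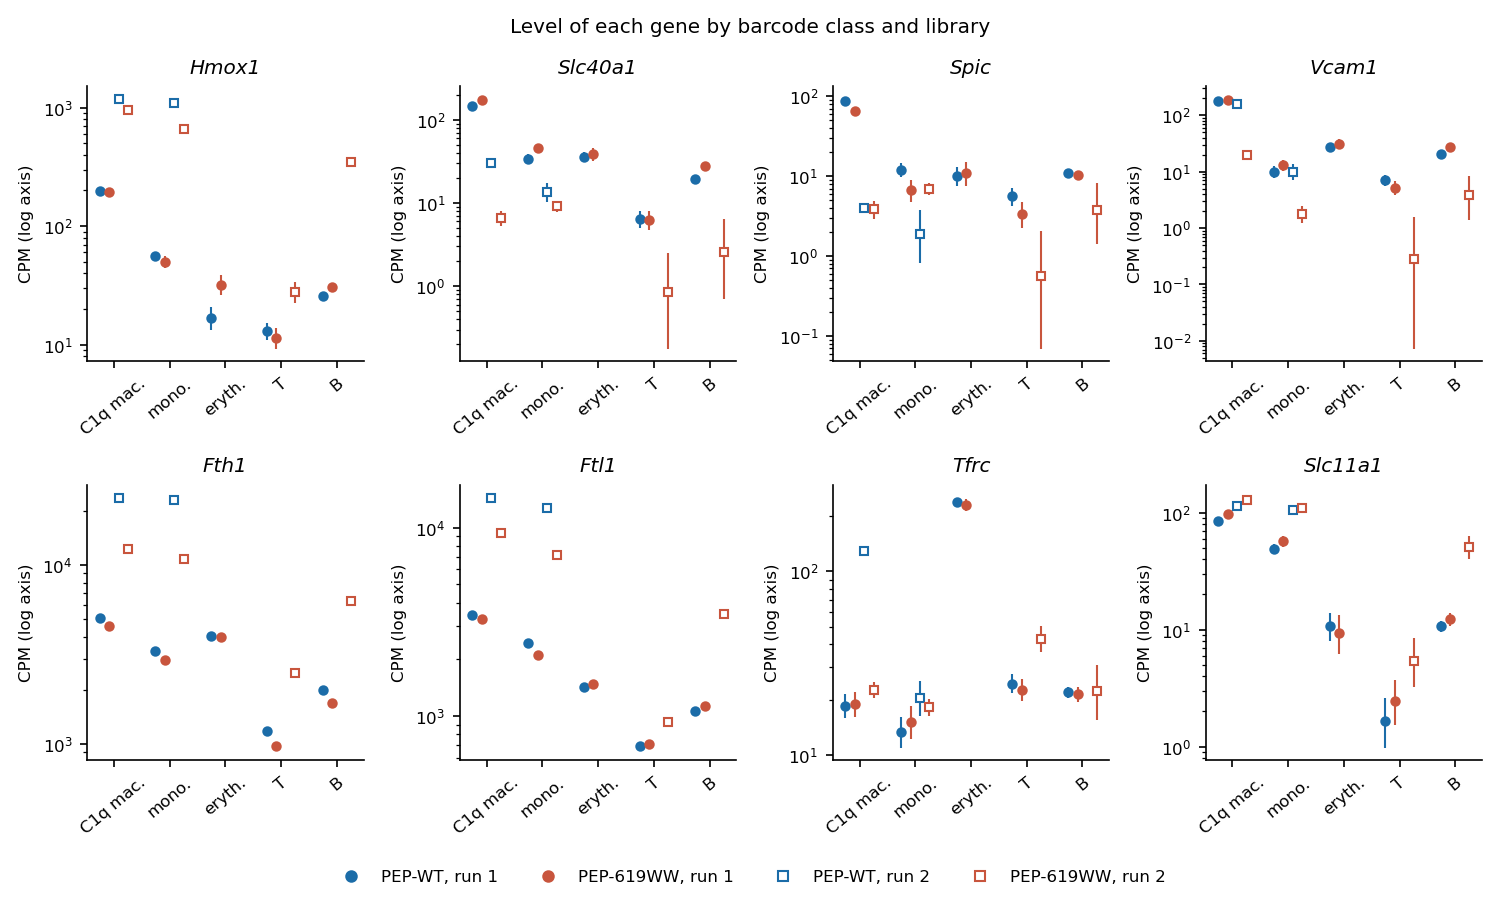
Level of each of the 8 genes, in CPM on log axes, in the 5 barcode classes of each library with at least 50 barcodes in the class. Points are class sums and bars exact 95% Poisson intervals. In run 1 Tfrc peaks in erythroid barcodes, at 239 and 231 CPM, and the other 7 genes peak in C1q macrophages.

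In run 1 *Spic*, *Vcam1*, *Slc40a1* and *Hmox1* were each highest in the macrophage class. The level of *Spic* was 87.8 CPM in PEP-WT macrophages (81.8 to 94.1) and 66.6 CPM in PEP-619WW macrophages (61.1 to 72.4). In the other 4 classes of run 1 it lay between 3.34 and 12.1 CPM. In run 2 *Spic* was at only 3.96 and 3.85 CPM in macrophages and at 1.90 and 7.01 CPM in monocytes. Run 2 macrophages thus held less *Spic* per UMI than run 1 monocytes did. *Vcam1* stood at 177 and 189.5 CPM in macrophages of run 1 and at 161 CPM in PEP-WT macrophages of run 2, but at 19.9 CPM (17.7 to 22.2) in PEP-619WW macrophages of run 2. Monocyte levels of *Vcam1* ran from 1.78 to 13.2 CPM, and erythroid barcodes held 27.4 and 31.1 CPM. In the erythroid barcodes that met no other class's rule *Vcam1* was at 3.26 and 9.83 CPM, from 11 and 20 UMIs.

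Ferroportin mRNA was lower in run 2 macrophages than in those of run 1, and heme oxygenase mRNA was higher. *Slc40a1* was at 146 and 171 CPM in run 1 macrophages and at 30.6 and 6.56 CPM in run 2 macrophages. The next classes in run 1, monocytes and erythroid barcodes, lay between 34.1 and 45.4 CPM and their intervals overlapped in each library. For *Hmox1*, macrophages held 197 and 193 CPM in run 1 and 1182 and 955 CPM in run 2. As a ratio, the gap between the runs was wider in the monocyte class. There *Hmox1* was at 55.5 and 50 CPM in run 1 and 1096 and 659 CPM in run 2. The makeup of that class differed between the runs, as given above, and its part was not tested.

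Both ferritin chains were more than 2 times higher in the macrophages and monocytes of run 2 than in those of run 1. *Fth1* in macrophages was at 5061 and 4608 CPM in run 1 and at 23879 and 12322 CPM in run 2. *Ftl1* in macrophages was at 3423 and 3282 CPM in run 1, 14440.0 CPM in PEP-WT of run 2 and 9371 CPM in PEP-619WW of run 2. In run 1 the second class for *Fth1* was the erythroid one, at 4043 and 3986 CPM, and for *Ftl1* the monocytes, at 2441 and 2096 CPM. T barcodes were lowest for both chains in each library with at least 50 of them. Markers of lipid-associated macrophages moved with the run as well, at 216 and 205 CPM in run 1 macrophages and 9566 and 3849 CPM in run 2 macrophages, and their part in the ferritin levels was not tested.

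The gene of iron uptake was highest outside the macrophages in run 1. *Tfrc* was at 239 CPM (226 to 253) and 231 CPM (215 to 249) in erythroid barcodes of run 1, about 9.78 and 10.2 times its level in T barcodes, the next class. T, B and macrophage barcodes of run 1 lay between 18.6 and 24.5 CPM, and neighbours in that order had overlapping intervals. Macrophages of run 1 that met no other class's rule held less *Tfrc*, 11.3 and 8.46 CPM. In run 2 *Tfrc* reached 129 CPM in PEP-WT macrophages, whereas PEP-619WW macrophages held 22.6 CPM. *Slc11a1* kept the narrowest range of the 8 genes in macrophages, at 85.4, 97.6, 114 and 129 CPM over the 4 libraries, with monocytes at 49.0 and 57.0 CPM in run 1 and at 105 and 109 CPM in run 2. T barcodes held 1.65 to 5.42 CPM of *Slc11a1*.

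Shares of barcodes with a UMI were read against T and B barcodes, taken here as a background. The T rule leaves out barcodes with a *Lyz2* UMI and the B rule does not, so these backgrounds are unlike. In PEP-WT run 1, *Spic* UMIs per *C1qa* UMI were 0.494 in barcodes of the T class alone and 0.297 in those of the B class alone. Macrophages, selected in part by *C1qa*, had 0.122. Whether the T and B signal came from macrophage RNA was not tested. In PEP-WT of run 1, 40% of macrophage barcodes had a *Spic* UMI (36.0 to 44.0), against 2.93% of T barcodes and 2.32% of B barcodes, at median depths of 10105.5, 4225.5 and 2837 UMIs. With each barcode thinned to 1000 UMIs, which kept 559 of the 598 macrophage barcodes, the shares were 8.59%, 0.921% and 0.453%. In run 2 the macrophage shares for *Spic* were 3% and 2.08% unthinned, and 0.316% and 0.568% thinned. T and B barcodes of PEP-619WW run 2 had thinned shares of 0.137% and 0.216%, and the intervals overlapped that of its macrophages. Unthinned, 2.08% of PEP-619WW macrophages (1.5 to 2.82) stood against 0.259% of T barcodes (0.0314 to 0.934) and 1.19% of B barcodes (0.439 to 2.58). The *Spic* level in these macrophages was 6.74 times that of T barcodes (log2 ratio 2.75, 0.84 to 5.83, with only 2 UMIs in T) and 1.01 times that of B barcodes (0.01, -1.19 to 1.51). PEP-WT of run 2 had too few T and B barcodes for a background. *Slc40a1* was seen in 37.6% of PEP-WT macrophages of run 1 (10.6% thinned), against 2.93% of T barcodes (0.690%), and in 3% of PEP-619WW macrophages of run 2 (0.671% thinned). Part of the B signal came from barcodes that met a second rule: *Vcam1* in PEP-WT run 1 was at 20.6 CPM in all B barcodes and at 3.39 CPM in those of the B class alone, and *Hmox1* was at 25.6 and 7.92 CPM likewise.

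Against monocytes of the same library, 6 of the 8 genes were at least 1.5 times higher in macrophages in PEP-WT run 1 and 7 in PEP-619WW run 1. Over all genes with at least 20 UMIs, 10.5% and 12.9% passed the same fold in these libraries. In run 2 the number was 4 in PEP-WT and 1 in PEP-619WW, beside 19.3% and 7.29% of all genes. Without the macrophage barcodes that held a *Ccr2* UMI, 82.3% of that class in PEP-619WW, the 1 became 5, beside 12.5% of all genes. The median log2 ratio of the 8 genes was 1.31, 1.34, 0.62 and 0.28 in the 4 libraries, where that of all genes was -0.04, 0.04, 0.10 and 0.01. *Vcam1* was the member past the fold in every library, 17.8, 14.4, 16.1 and 11.2 times higher in macrophages. *Spic* was 7.26 and 9.98 times higher in run 1 and *Slc40a1* 4.28 and 3.76 times higher. In PEP-WT of run 2 the folds were 2.09 for *Spic* and 2.26 for *Slc40a1*. Over the 4 libraries *Hmox1* was 3.55, 3.86 and 1.08 times higher in the first 3 and at a log2 ratio of 0.54, within the fold, in the last. *Fth1* was 1.53, 1.56, 1.03 and 1.14 times higher, *Ftl1* 1.4, 1.57, 1.13 and 1.31 times, and *Slc11a1* 1.74, 1.71, 1.09 and 1.19 times. For *Tfrc* the fold was 6.32 in PEP-WT of run 2 and 1.24 to 1.39 in the others. In PEP-619WW of run 2 *Spic* and *Slc40a1* were lower in macrophages than in monocytes, with log2 ratios of -0.87 (-1.33 to -0.42) and -0.48 (-0.85 to -0.12), of which the first passed the fold. Against monocyte barcodes without neutrophil UMIs, *Slc40a1* was 9.77 and 22.8 times higher in macrophages of run 1 and 3.76 times higher in PEP-WT of run 2. In PEP-619WW of run 2 its log2 ratio then turned to 0.10 (-0.30 to 0.50), and a difference was not detectable at this depth. Without the monocyte barcodes that held neutrophil UMIs, the numbers of run 1 were 7 and 6, beside 10.3% and 11.9% of all genes.

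Ferroportin in the monocyte class was higher in barcodes with neutrophil transcripts than in those without. In run 1 *Slc40a1* was at 72.0 CPM (62.1 to 82.9) in the 432 PEP-WT monocyte barcodes with a UMI of *Ly6g*, *Retnlg*, *Camp* or *Ngp*, and at 15 CPM (11.8 to 18.7) in the 637 without. In PEP-619WW it was at 75.9 CPM in 530 such barcodes and 7.49 CPM in the other 308. Run 2 had few such barcodes, 44 and 103, and they held 161 and 129.8 CPM of *Slc40a1* against 8.12 and 6.11 CPM in the rest. The difference had the same direction in all 4 libraries. *Spic* showed no such pattern: it was at 7.20 and 6.87 CPM with neutrophil UMIs and 14.6 and 6.42 CPM without in run 1. The levels within these barcodes, and the splits by *Spic*, *Vcam1*, *Ccr2* and *Folr2* used from here on, were chosen after values had been seen.

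*Hmox1*, *Slc40a1*, *Spic* and *Vcam1* were seen together in the same barcodes in run 1. All 4 had a UMI in 105 of 598 PEP-WT macrophage barcodes (17.6%) and in 92 of 494 PEP-619WW macrophage barcodes (18.6%). None of the 4 was seen in 21.7% and 24.5%. In run 2 the same 4 genes were seen together in 58 of 5839 PEP-WT barcodes (0.993%) and in 0 of 1968 PEP-619WW barcodes, which allows a share of up to 0.152% (taken as 3 barcodes of the total). Thinned to 1000 UMIs, 3 of the genes were seen in 3.22% and 3.92% of the barcodes in run 1, 18 of 559 and 18 of 459. In run 2 the shares were 0.403% and 0%, 23 of 5703 and 0 of 1937. All 4 genes were seen in 3 and 2 thinned barcodes of run 1 and in 0 of run 2.

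**Figure D2:**
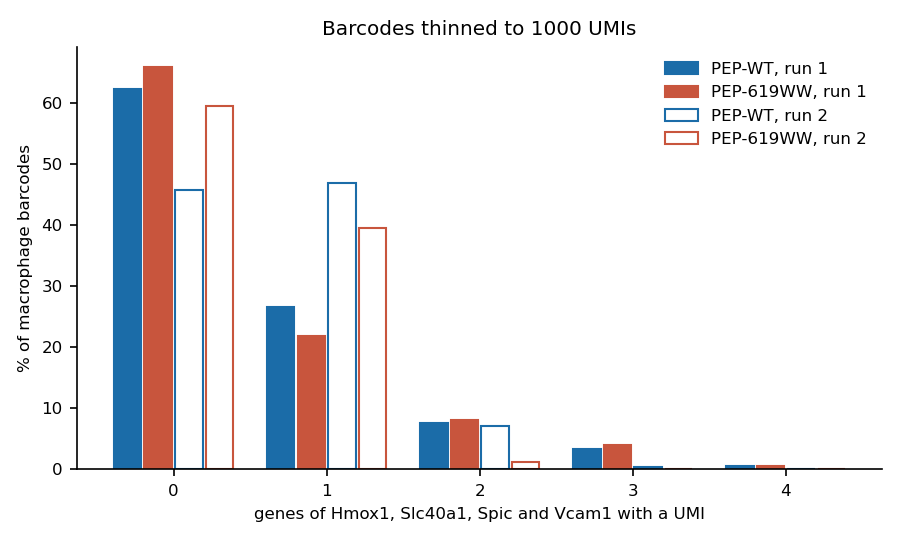
Share of C1q macrophage barcodes, in %, by how many of Hmox1, Slc40a1, Spic and Vcam1 had a UMI after thinning to 1000 UMIs, with bars for each library. In PEP-619WW run 2, 59.5% of barcodes show none of the 4 genes and 1.14% show 2.

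Macrophage barcodes of run 1 with a *Spic* UMI had higher levels of ferroportin and VCAM-1 transcripts than those without. They numbered 239 for PEP-WT and 162 for PEP-619WW, with a median of 14651 and 16437.5 UMIs against 8430 and 10732 in the barcodes without *Spic*, and deeper barcodes are more likely to show a gene. *Slc40a1* was at 249.5 and 350.4 CPM with *Spic* and at 29.9 and 35.9 CPM without, a ratio of 8.34 and 9.77. For *Vcam1* the ratios were 4.28 and 5.28, and for *Hmox1* 2.59 and 3.38. Ferritin differed less, by 1.47 times for *Fth1* and 1.37 times for *Ftl1* in both genotypes. *Slc11a1* was 1.86 and 1.93 times higher with *Spic*. *Ccr2*, a chemokine receptor of monocytes, went the other way, at 83.9 and 102 CPM with *Spic* and 152 and 182 CPM without. *C1qa* was 2.01 and 2.76 times higher with *Spic*, and the hemoglobin transcript *Hbb-bs* was lower, 0.355 and 0.194 times the level without. *Tfrc* was at 18.7 CPM with *Spic* and 18.5 CPM without in PEP-WT, and at 30.8 and 9.88 CPM in PEP-619WW. In barcodes that met no other class's rule it was at 13.0 and 9.63 CPM in PEP-WT and at 13.7 and 4.44 CPM in PEP-619WW. In run 2 the *Spic* split gave ratios of 3.70 and 9.35 for *Slc40a1*, the latter from 18 and 86 UMIs. For *Hmox1* they were 1.72 and 2.62. *Fth1* was again higher with *Spic*, 1.31 and 1.56 times, and *Ftl1* 1.18 and 1.49 times. *Ccr2* was again lower, 0.253 and 0.739 times the level without. The next 3 genes repeated run 1 only in part or not at all. *Vcam1* had ratios of 1.80 and 1.16, the latter with a log2 interval of -1.01 to 1.22, and *C1qa* had 1.08 and 0.870. *Hbb-bs* was 3.12 times higher with *Spic* in PEP-WT.

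**Figure D3:**
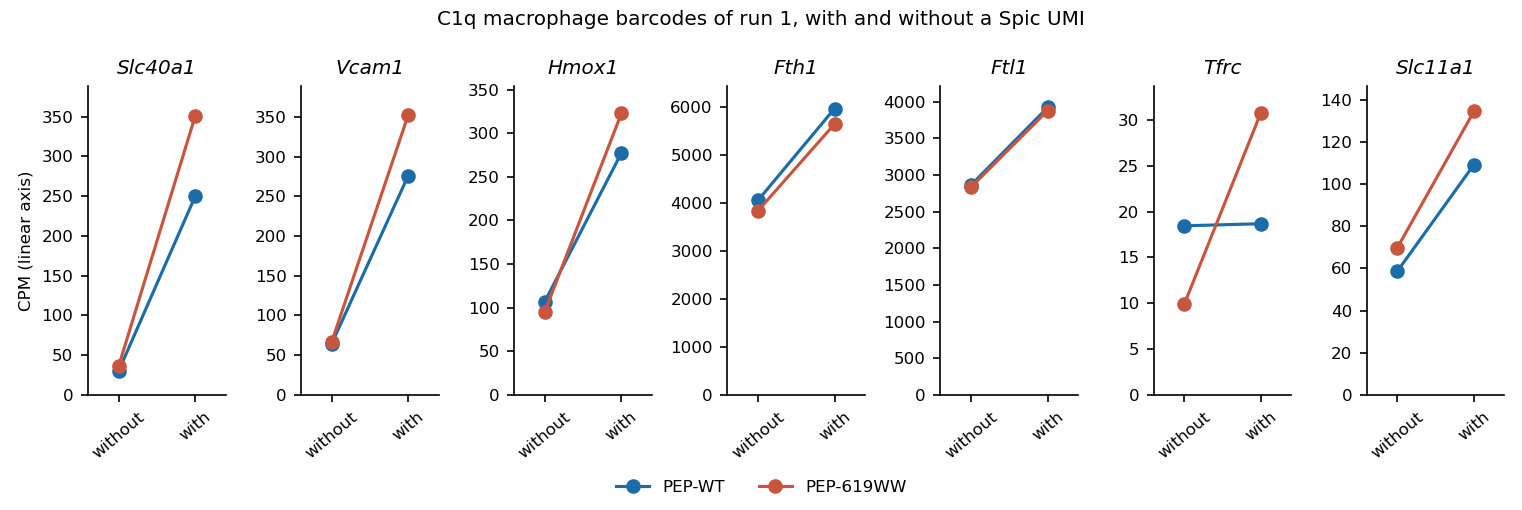
Level of the other 7 genes, in CPM on linear axes, in run 1 C1q macrophage barcodes without and with a Spic UMI, a line per genotype. Slc40a1 goes from 29.9 to 249.5 CPM in PEP-WT and from 35.9 to 350.4 CPM in PEP-619WW, while Tfrc stays at 18.5 and 18.7 CPM in PEP-WT and goes from 9.88 to 30.8 CPM in PEP-619WW.

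Which of the 8 genes differed between the genotypes was asked in macrophages and monocytes of each run. In run 1 macrophages, 0 of the 8 genes passed 1.5-fold in either direction, while 5.90% of all genes were higher and 7.65% lower in PEP-619WW by that fold. The members' median log2 ratio was -0.0039, and that of all genes -0.02. *Spic* had the largest ratio, -0.40 on the log2 scale (-0.56 to -0.24), from 799 and 544 UMIs. It passed the fold, at -0.79, when the barcodes in the top 5% of UMIs were left out. *Slc40a1* was 0.23 higher in PEP-619WW (0.12 to 0.34), *Slc11a1* 0.19 higher (0.05 to 0.34) and *Vcam1* 0.10 higher (0.00095 to 0.204). *Fth1* stood at -0.14 and *Ftl1* at -0.06. The intervals of *Hmox1*, -0.03 (-0.13 to 0.07), and *Tfrc*, 0.02 (-0.30 to 0.35), include 0, and so for these 2 genes a difference was not detectable at this depth. With barcodes thinned to 1000 UMIs, however, *Tfrc* passed the fold at 0.80. *Hbb-bs*, at 1191 CPM in PEP-WT and 187 CPM in PEP-619WW, differed more than any member in these barcodes, the 9 erythroid markers together were at 2052 and 419 CPM, and their part in the ratios was not tested.

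Within run 1 macrophages the ratios depended on which barcodes were compared. Among barcodes with a *Spic* UMI, *Slc40a1* was 0.49 higher in PEP-619WW on the log2 scale (0.37 to 0.61), *Vcam1* 0.35 higher and *Hmox1* 0.22 higher. Among barcodes without a *Vcam1* UMI, *Spic* was at 38.8 CPM in PEP-WT and 14 CPM in PEP-619WW (-1.47, -1.99 to -0.98), whereas with *Vcam1* it was at 117 and 102 CPM (-0.19, -0.36 to -0.02). Dividing by *Ccr2* gave opposite directions for *Vcam1*, at -0.47 with *Ccr2* (-0.63 to -0.30) and 0.53 without (0.40 to 0.66). In erythroid barcodes of run 1, *Hmox1* was at 16.8 and 32.0 CPM (0.93, 0.51 to 1.36), from 88 and 100 UMIs. Of these UMIs only 11 and 19 lay in barcodes of the erythroid class alone, at 3.26 and 9.34 CPM. *Tfrc* in all erythroid barcodes differed by -0.05 (-0.18 to 0.08).

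In run 1 monocytes, 1 of the 8 genes passed the fold, beside 5.87% of all genes higher and 9.70% lower in PEP-619WW. This was *Spic*, at 12.1 CPM in PEP-WT and 6.67 CPM in PEP-619WW, a log2 ratio of -0.86 (-1.42 to -0.32) from 95 and 42 UMIs. For all genes the split of calls changed with the scale: 37.7% of calls were higher ones as counted, and 53.2% after centring on the median. *Slc40a1* was 0.41 higher in PEP-619WW (0.17 to 0.66), and *Vcam1* stood at 0.41 (-0.05 to 0.87), *Slc11a1* at 0.22, *Tfrc* at 0.17 (-0.24 to 0.59), *Hmox1* at -0.15 (-0.36 to 0.06), *Fth1* at -0.16 and *Ftl1* at -0.22. Without the barcodes holding neutrophil UMIs, which were 432 of 1069 in PEP-WT and 530 of 838 in PEP-619WW, *Slc40a1* was at -1.0 (-1.77 to -0.29), and *Spic* stood at -1.18 (-2.01 to -0.43). So the direction for *Slc40a1* in this class was opposite with and without those barcodes.

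**Figure D4:**
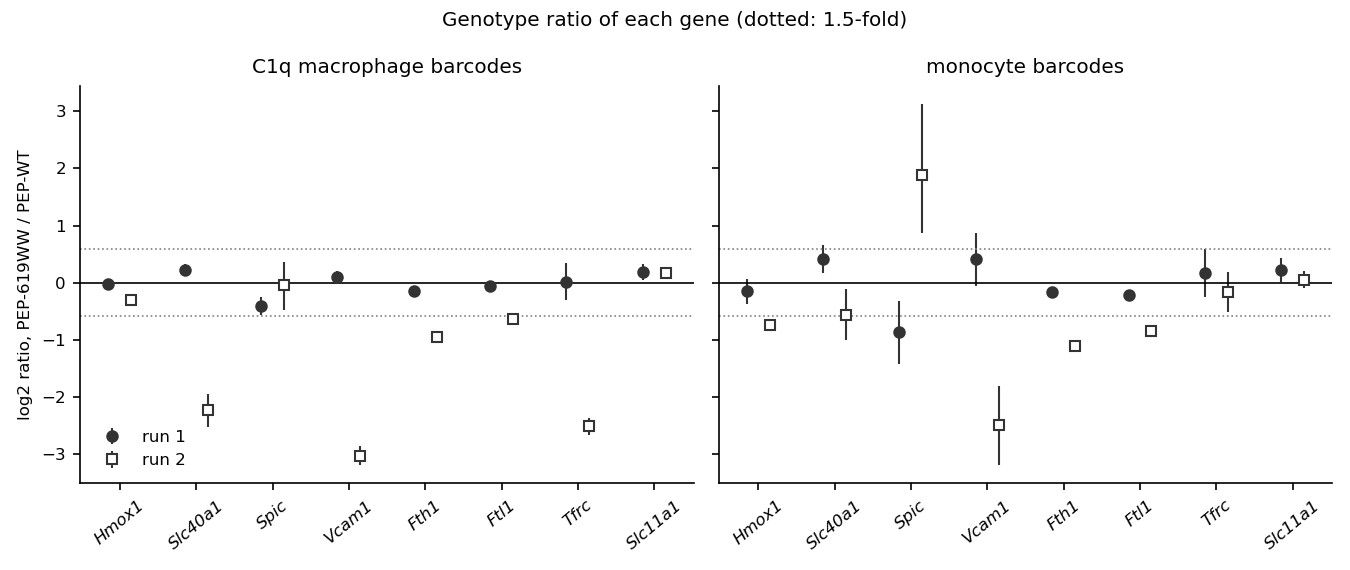
Log2 ratio of PEP-619WW over PEP-WT for the 8 genes in C1q macrophage and monocyte barcodes, with filled points for run 1 and open points for run 2, bars for exact 95% intervals and dotted lines at 1.5-fold. Vcam1 in macrophages is at 0.10 in run 1 and -3.02 in run 2, and Spic in monocytes is at -0.86 and 1.88.

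In run 2 macrophages, 5 of the 8 genes were lower in PEP-619WW past 1.5-fold and 0 were higher, beside 14.9% of all genes lower and 20.7% higher. The members' median log2 ratio was -0.79 and that of all genes 0.11. Centred on that median the count of members stayed at 5, while 49.2% of the calls over all genes were higher ones in place of 58.1%. *Vcam1* had the largest difference, from 161 to 19.9 CPM, a log2 ratio of -3.02 (-3.19 to -2.86). *Tfrc* stood at -2.51 (-2.67 to -2.36) and *Slc40a1* at -2.22 (-2.52 to -1.94), the latter from 1781 and 104 UMIs. *Fth1* was 1.94 times and *Ftl1* 1.54 times lower. *Hmox1*, at -0.31, *Spic*, at -0.04 (-0.48 to 0.37), and *Slc11a1*, at 0.18, stayed within the fold. In run 2 monocytes, 4 genes were lower and 1 higher, beside 8.08% of all genes lower and 26.4% higher, with a median over all genes of 0.24. Centred on that median, 6 genes passed the fold in place of 5. The lower genes were *Vcam1* (-2.49), *Fth1* (-1.10), *Ftl1* (-0.84) and *Hmox1* (-0.73). *Spic* was the higher one, at 1.88 (0.86 to 3.12), from 8 UMIs in PEP-WT and 134 in PEP-619WW. *Slc40a1*, at -0.56 (-1.0 to -0.11), *Tfrc*, at -0.17 (-0.51 to 0.19), and *Slc11a1*, at 0.05 (-0.10 to 0.20), stayed within the fold. Of the calls over all genes in run 2 monocytes, 76.6% were higher ones as counted and 54.8% after centring on the median. The 6 melanocyte markers summed to 171 CPM in PEP-WT and 68.6 CPM in PEP-619WW macrophages, and to 378 and 45.8 CPM in monocytes. The 9 erythroid markers summed to 381 CPM in PEP-WT and 4.16 CPM in PEP-619WW macrophages, with 8 and 7 of them seen, and to 510 and 5.49 CPM in monocytes, with 5 and 7 seen. From PEP-WT to PEP-619WW, lipid-associated macrophage markers went from 9566 to 3849 CPM in macrophages and from 12428 to 3115 CPM in monocytes, and the 3 *Folr2* macrophage markers from 1618 to 1039.6 CPM and from 696 to 489.8 CPM. The 5 T markers were higher in PEP-619WW, at 119 CPM against 8.84 CPM in macrophages and at 124 CPM against 14.5 CPM in monocytes, and so were the 3 NK markers, at 23.3 against 0.206 CPM and 63.9 against 2.37 CPM. The part of these marker lists in the ratios, those of *Tfrc* and *Slc40a1* included, was not tested.

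The macrophage classes of run 2 differed in makeup between the genotypes. A UMI of *Ccr2* was present in 25.8% of PEP-WT and 82.3% of PEP-619WW macrophage barcodes, compared with 41.0% and 42.1% in run 1. Among run 2 barcodes without *Ccr2*, 4335 and 349, *Fth1* was at 25917.5 and 21576.5 CPM (log2 ratio -0.26, -0.28 to -0.25) and *Ftl1* at 15142 and 11934 CPM (-0.34). Among those with *Ccr2*, *Fth1* was at 18367 and 10999 CPM (-0.74, -0.75 to -0.73) and *Ftl1* at -0.48. *Vcam1* was at 198 and 108 CPM without *Ccr2* (-0.87, -1.07 to -0.68), whereas with *Ccr2* it was at 59.6 and 7.20 CPM (-3.05). *Hmox1* was higher in PEP-619WW without *Ccr2*, at 1519 CPM against 1269.9 CPM in PEP-WT (0.26, 0.21 to 0.31). *Tfrc* kept a ratio of -2.32 (-2.70 to -1.96) without *Ccr2*, at 156 and 31.3 CPM, and *Slc40a1* one of -2.08 (-2.84 to -1.42), from 1634 and 18 UMIs. With *Ccr2* the ratios of these genes were nearer 0, at -1.39 (-1.59 to -1.20) for *Tfrc*, from 56.2 and 21.4 CPM, and -0.59 (-0.99 to -0.20) for *Slc40a1*, from 147 and 86 UMIs. So 3 of the 8 genes passed 1.5-fold without *Ccr2*, all lower in PEP-619WW, beside 16.8% of all genes lower and 14.8% higher among the same barcodes. The median depth without *Ccr2* was 7600 UMIs for PEP-WT and 4206 UMIs for PEP-619WW.

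**Figure D5:**
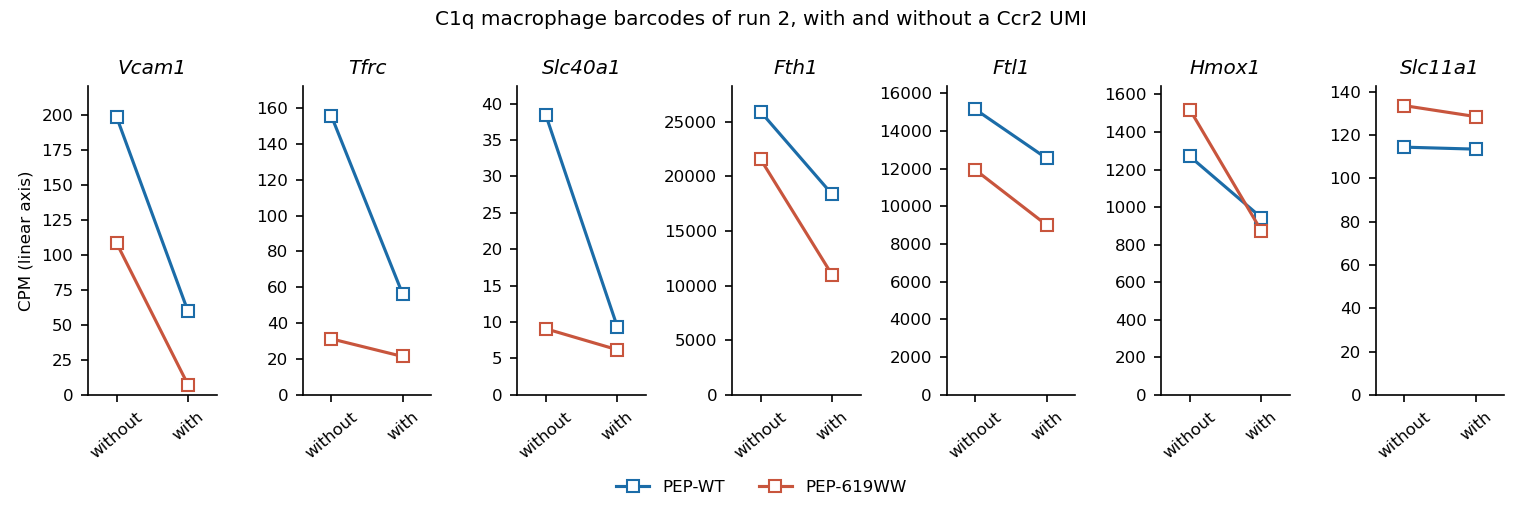
Level of 7 of the genes, in CPM on linear axes, in run 2 C1q macrophage barcodes without and with a Ccr2 UMI, a line per genotype. Tfrc stays apart between genotypes without Ccr2, at 156 and 31.3 CPM, where Fth1 is at 25917.5 and 21576.5 CPM.

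*Folr2*, which encodes a folate receptor of resident macrophages, gave another division of run 2. It was seen in 44.7% of PEP-WT and 23.1% of PEP-619WW macrophage barcodes of run 2, and in 0 and 2 barcodes of run 1. *Hmox1* was 1.83 and 1.55 times higher with *Folr2* than without, and *Tfrc* 2.61 and 1.55 times higher. *Vcam1* was lower with *Folr2* in PEP-WT (0.780 times) and higher in PEP-619WW (1.61 times). Within barcodes with *Folr2* the genotype ratios were -2.39 for *Vcam1*, -2.50 for *Tfrc*, -1.86 for *Slc40a1* and -1.02 for *Fth1*, and within those without *Folr2* they were -3.43, -1.75, -2.24 and -0.89.

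Other genes of the same processes were counted in macrophages where each genotype had at least 50 UMIs. Over all such genes, 2.29% were higher and 3.49% lower in PEP-619WW past 1.5-fold in run 1, and 18.3% and 7.93% in run 2. Of the genes for red cell clearance and heme breakdown, 8 of 15 were counted in run 1, with 1 higher and 0 lower: *Mertk*, a receptor for dying cells, at 0.61 (0.40 to 0.83). *Lrp1*, the receptor for heme bound to hemopexin, stood at 0.58, just inside the fold. In run 2, 1 of 9 was higher, the receptor gene *Axl* at 0.75, and 2 were lower, the biliverdin reductase gene *Blvrb* at -1.19 and *Cd163*, which encodes the receptor for hemoglobin bound to haptoglobin, at -1.50. That filter leaves out genes that are low in 1 genotype, so the lists were also counted with at least 20 UMIs over both genotypes together, a choice made after values were seen, for which the shares of all genes are those given above for macrophages of each run. By this count 1 of 10 genes was higher and 1 lower in run 1, and 1 of 12 higher and 5 lower in run 2. Here and in the next lists, genes called in run 2 alone were named after their values were seen. *Blvrb* was at -0.26 in run 1, and *Blvra*, which encodes the other biliverdin reductase, at -0.30 and -0.58. The median log2 ratio of the list was -0.02 in run 1 and -0.17 in run 2, and with the filter on both genotypes together -0.04 and -0.53.

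Of the genes for iron transport, storage and its control, 14 of 23 were counted in each run. In run 1, 2 were higher and 0 lower: *Ltf*, which encodes the neutrophil protein lactoferrin, at 1.53, and *Fbxl5*, the iron sensor that marks an iron regulatory protein for decay, at 0.76 (0.59 to 0.94). The 6 neutrophil markers summed to 3532 CPM in PEP-WT and 3547 CPM in PEP-619WW macrophages of run 1. In B barcodes of that run they summed to 1427 and 3074 CPM. Their part in the *Ltf* ratio was not tested. In run 2, *Slc39a14*, which encodes an iron importer (1.30), and *Lcn2*, which encodes a binder of bacterial iron carriers (1.16), were higher, and *Ncoa4*, which encodes the receptor that sends ferritin to the lysosome, was lower (-0.67). *Lcn2* was at only 1.66 and 3.72 CPM, from 97 and 59 UMIs. The 6 neutrophil markers went from 205 to 481 CPM in these macrophages, with 6 and 3 of them seen. Their part in the *Lcn2* ratio was not tested. *Fbxl5* was at 0.35 in run 2, within the fold, and *Ltf* had only 7 and 6 UMIs. *Trf*, which encodes transferrin, was at 0.53 in run 1 and -0.37 in run 2. The medians were 0.15 and 0.17. With the filter on both genotypes together 2 of 18 were higher and 2 lower in run 1, and 3 of 17 higher and 3 lower in run 2, with medians of 0.15 and 0.16. The added genes of run 2 include the metal importer gene *Slc39a8*, at -2.50 (-3.25 to -1.84) from 396 and 19 UMIs, and *Cp*, which encodes the iron oxidase ceruloplasmin, at -1.88 (-2.57 to -1.25) from 297 and 22 UMIs. Of the genes for heme synthesis 0 of 10 passed the fold in run 1, where the median was -0.28, and in run 2 1 of 11 was higher and 2 were lower. *Abcb10*, which encodes a mitochondrial transporter, was at -0.46 in run 1 and 0.64 in run 2, and *Alad*, which encodes an enzyme of the pathway, was at -0.44 and -0.64. The median in run 2 was -0.11. With the other filter 0 of 12 were higher and 2 lower in run 1, and 1 was higher and 3 lower in run 2, with medians of -0.36 and -0.15. The lower genes of run 1 were *Alas2*, which encodes the erythroid form of the first enzyme of the pathway, from 42 and 10 UMIs, and *Uros*, from 62 and 34 UMIs. The erythroid markers of these barcodes moved in the same direction, from 2052 to 419 CPM, and their part in this list was not tested.

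The list of antioxidant genes known as targets of NRF2 or BACH1, which also control *Hmox1*, holds the regulator genes *Bach1*, *Nfe2l2* and *Keap1* too. Its counts and medians are thus not of target genes alone. Of this list 1 of 8 was higher in run 1, *Gsr*, encoding glutathione reductase, at 0.62 (0.53 to 0.72). In run 2 it was at 0.70, and 3 of 10 were higher and 1 lower. *Bach1*, a repressor of *Hmox1* that heme inactivates, was at 0.45 in run 1 and 1.09 in run 2, and the cystine transporter gene *Slc7a11* was at 1.73 in run 2 but at -0.75 in run 1 (-1.28 to -0.24, from 92 and 49 UMIs, and so not counted there). *Prdx1*, which encodes a peroxiredoxin, was at -0.27 and -0.85. *Gclm*, which encodes a subunit of the enzyme that starts glutathione synthesis, was at -0.49 and -0.56. The medians were -0.11 and 0.11. With the other filter 1 of 10 was higher and 1 lower in run 1, and 3 of 12 were higher and 3 lower in run 2, and the medians were -0.20 and -0.18, so the sign of the run 2 median turned. Of the other red pulp macrophage genes, 0 of 10 were higher and 1 lower in run 1, *Fcna*, which encodes a ficolin, at -0.63 (-0.95 to -0.32). In run 2 *Fcna* was at -2.38, and 4 of 11 were higher and 2 lower. The higher ones included *Irf4* (2.46), *Treml4* (1.22, against -0.30 in run 1, -0.48 to -0.11) and *Csf1r* (0.65), and the other lower one was *Cd68* (-0.60). *Pparg*, a nuclear receptor, was at -0.37 and -0.23. Over this list the median was -0.09 in run 1 and 0.18 in run 2. With the other filter 0 of 12 were higher and 3 lower in run 1, where the median was -0.20, and 4 were higher and 2 lower in run 2, where it was -0.02 in place of 0.18. The added genes of run 1 were *Hpgd*, which encodes an enzyme that breaks down prostaglandins, at -2.09 (-2.76 to -1.47) from 123 and 26 UMIs, and the integrin gene *Itgad*, at -2.04 (-3.08 to -1.12) from 55 and 12 UMIs. In run 2 they were at -0.39 (-0.82 to 0.01) and -0.45 (-2.45 to 1.13).

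The genes most like each member were taken by the Pearson r of log2(CPM + 1) over 18 sums, as classes of each library, among 10893 genes. The sums share libraries and barcodes, so the values are a description. *Vcam1* was closest to *Cd5l* (0.94), *Fcna* (0.94) and *Slc40a1* (0.90), and *Spic* to *Gbp2b* (0.92), *Slc40a1* (0.91) and *Dnase1l3* (0.91). *Slc40a1* was closest to *Il18bp* (0.97), *Gbp2b* (0.92) and *Gca* (0.91), and *Hmox1* to *F7* (0.98), *Cndp2* (0.97) and *Atp6v0c* (0.96). *Fth1* was closest to *Ftl1* (0.97), *Ftl1-ps1* (0.97) and *Pdxk* (0.95), and *Ftl1* to *Ftl1-ps1* (0.98), *Fth1* (0.97) and *Ctsb* (0.97). For *Tfrc* these genes were *Mrpl53* (0.94), *Hspd1* (0.94) and *Bola3* (0.91), and for *Slc11a1* *Tgfbi* (0.99), *Lrrc25* (0.98) and *Clec4a1* (0.98). Without the 2 sums of under 50 barcodes, each member kept 0 to 2 of its 3 genes, so these names rest in part on very small sums.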

How the data were processed

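UMI counts per gene and barcode were made by the authors with Cell Ranger (version 6.1.1 in the methods, 6.0.0 in the submitters' processing notes) on the mm10 transcriptome from 10x 3′ libraries (chemistry 3.1), and the deposited count tables hold these counts without normalization. Of 32285 gene identifiers, 32158 were matched to a symbol. UMIs were summed per class and library. Ratios were given exact conditional intervals, levels exact Poisson intervals and shares Clopper-Pearson intervals, at 95%. No barcode, doublet or gene filter was applied, and a barcode could fall in more than 1 class. Background percentages used genes with at least 20 UMIs over both groups. Thinning drew 1000 UMIs per barcode and left out the shallower barcodes, 978 to 1199 per library. The interval code was tested on simulated data. All 8 genes were named in the comparisons of macrophages with monocytes and of the genotypes within each of these classes, and some of them in the splits within a class, list genes by the largest ratios in run 1, at most 6 per list and often fewer, with others marked as chosen after their values were seen, and likeness by the top 3 genes with at least 500 UMIs. The likeness rule foresaw 20 sums, of which 2 had no barcode. Values of 2 genes of the lists are not reported here. The members and lists were chosen with earlier results of these data known. The software was python (3.11.15), numpy (2.4.6) and scipy (1.17.1).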

Additional observations from a re-analysis of the deposited data

Results flagged for a closer look

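For 4 results on the 8 genes the 2 runs pointed in opposite directions with counting intervals that exclude 0, and the difference between runs was not tested across samples. *Slc40a1* in macrophages was at 0.23 in run 1 and -2.22 in run 2 on the log2 scale of PEP-619WW over PEP-WT, a difference of -2.45, and in monocytes at 0.41 and -0.56, a difference of -0.98. Without the monocyte barcodes that held neutrophil UMIs, *Slc40a1* was at -1.0 (-1.77 to -0.29) in run 1 and -0.41 (-0.98 to 0.19) in run 2, so the runs did not point in opposite directions there. *Vcam1* in macrophages was at 0.10 and -3.02, a difference of -3.12. Its run 1 interval, 0.00095 to 0.204, barely excludes 0. *Spic* in monocytes was at -0.86 and 1.88, a difference of 2.74, which rests on 8 UMIs in PEP-WT of run 2. Within run 1 macrophages, *Tfrc* was higher in PEP-619WW in barcodes with *Spic* (0.72, 0.30 to 1.14) and lower in those without (-0.90, -1.46 to -0.36), a difference of 1.62 that comes from 46 to 108 UMIs per group. Most of these UMIs lay in barcodes that also met another class's rule: without such barcodes, a choice made after seeing the data, the ratios were 0.08 (-0.74 to 0.89) with *Spic* and -1.12 (-2.30 to -0.02) without, from 11 to 29 UMIs per group, so the higher value with *Spic* was not seen there. Other genes also had opposite directions, with intervals that exclude 0, in the barcodes with and without a marker UMI, and none of these differences was tested. In run 1, with *Ccr2* minus without, the difference of the log2 ratios was -0.99 for *Vcam1*, -0.47 for *Fth1*, -0.40 for *Hmox1* and -0.32 for *Ftl1*. In run 2 it was -0.37 for *Hmox1* by *Ccr2*, -0.25 by *Folr2* and 0.61 by *Spic*. Of the genes of the other lists, 8 had opposite directions in macrophages of the 2 runs with intervals that exclude 0, which was not tested either. The difference of run 2 minus run 1 was 2.48 for *Slc7a11*, 1.52 for *Treml4*, 0.48 for *Keap1*, 0.47 for *Pcbp1*, 0.46 for *Irf8*, -0.64 for *Fech*, -0.75 for *Aco1* and -0.90 for *Trf*.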

How the results depend on the processing

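The 8 counts of members past 1.5-fold were recomputed under 11 other settings, and under 1 more chosen after seeing the data, the removal of macrophage barcodes with *Ccr2*. Of 90 recomputed counts 78 stayed within 1.5 times. Those of the setting without a filter on low counts could not move, because the 8 genes were never filtered. In run 1 monocytes the count of 1 became 2 with barcodes of 1 class only, with barcodes weighted equally, with thinning to 1000 UMIs and without neutrophil UMIs. In run 1 macrophages the count of 0 became 1 with thinning and 1 without the top 5% of barcodes. With thinning it was *Tfrc* at 0.80, from few UMIs and without an interval. At 2-fold the counts were 3 and 3 in place of 5 and 5 in run 2 macrophages and monocytes, 0 in place of 1 in run 1 monocytes, and 4 in place of 7 for macrophages over monocytes in PEP-619WW run 1. Without *Ccr2* barcodes, run 2 macrophages gave 3 in place of 5, and macrophages over monocytes in PEP-619WW run 2 gave 5 in place of 1. With at least 20 UMIs over both genotypes in place of 50 in each, also chosen after seeing the data, 7 of 10 list counts moved by over 1.5 times. In run 1 they became 2 for red cell clearance in place of 1, 4 for iron transport in place of 2, 2 for heme synthesis in place of 0, 2 for the antioxidant genes in place of 1 and 3 for the other red pulp genes in place of 1. In run 2 red cell clearance became 6 in place of 3 and iron transport 6 in place of 3. With barcodes of 1 class only, *Tfrc* in run 1 macrophages with *Spic* moved from 0.72 to 0.08. Of the single ratios past 1.5-fold, all 341 recomputed values kept their sign, but of all 718 recomputed ratios of the 8 genes only 496 lay within the counting interval of the first value. These totals include the settings without a filter on low counts and with a call at 2-fold. Both leave the ratios as they were, so their sign and place in the interval were fixed in advance. No paired analysis was possible because each genotype has 1 sample. Counts of 8 and 18 UMIs limit *Spic* in PEP-WT monocytes and *Slc40a1* in PEP-619WW macrophages without *Ccr2* in run 2.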
